A study of Mus musculus with 19 samples.

Results

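The starting cell type of a reprogramming experiment, mouse embryonic fibroblasts (MEFs), was compared with the tissue grown from it. The comparison took 5 iEpt+NAF grafts and 6 MEF samples, 11 of the 19 samples of the series, by the sample names FS002, FS003, FS005, FS007 and FS008 for the grafts and FS015 to FS020 for the MEFs. The labels describe all grafts of the series alike, and the 5 compared here are those that the study names as iEpt+NAF. The other 2 grafts were not used here, and the 6 samples of normal prostate, whose labels give a duration of 6 weeks, appear only as values beside the results.

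All samples carry the strain label C57BL/6. The MEFs came from the limbs of mid-gestation embryos, were heterozygous for a targeted lacZ reporter allele, and were grown in medium with serum, with male and female littermates pooled in each culture. They had been sorted against CD45, Ter119, CD31, Mac-1 and EpCAM, the surface marks of blood cells, endothelium, macrophages and epithelium. For the grafts, fibroblasts received retroviruses with human OSKM, the reprogramming factors KLF4, OCT4, c-MYC and SOX2, and were kept in a medium for basal epithelial cells, which gives induced epithelial (iEpt) cells. These cells also received lentiviruses with 3 master regulators of prostate formation, Foxa1 among them, were mixed with embryonic rat urogenital mesenchyme, and grew for 6 weeks as grafts in the kidneys of male nude mice. A graft is therefore a mixture of cells, with rat stroma, a mouse host and host kidney around it, and nude mice have few T cells but keep macrophages and other innate immune cells. Whether rat reads were counted on mouse genes was not tested. The genotype of the cells in each graft is not in the labels, and agents, culture, host and growth in vivo all differ between grafts and MEFs, so that their parts in a difference cannot be told apart.

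Fibroblasts lie singly in a matrix that they make themselves, of collagens, fibronectin and other secreted proteins, and in culture they divide and contract. Epithelial cells are joined in sheets by cadherins and claudins, carry keratin filaments, rest on a basal lamina and, in glands, secrete into a lumen. The 2 cell types thus use different sets of structural genes. The kidney is lined by epithelium of its own, whose transporters and enzymes are among its most abundant transcripts.

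RNA-seq reads were counted per gene, normalized by the authors with DESeq and deposited as log2 values for 23284 mouse genes. A level is given here on that log2 scale, and a difference as a log2 fold change of grafts over MEFs, where 1 stands for a doubling and negative values for lower levels in grafts. The reads counted on genes, estimated from the values, ranged from 17371431 to 23446535 in grafts (median 19821350) and from 20418167 to 26152349 in MEFs (median 22499071). A gene with 3 reads had a level of 1.68 to 2.05 in grafts and 1.88 to 2.08 in MEFs, and a gene at or below that level in each sample of a group is called not seen in it. Such floors cover counting error only. Since low levels carry an added scatter, a gene not seen in MEFs is given the smallest difference that the floor allows, written as "at least".

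The MEF samples fell into 3 close pairs, FS015 with FS020, FS016 with FS019 and FS017 with FS018. Over 4014 genes, the SD of log2 differences was 0.08 to 0.10 within these pairs and 0.30 to 0.34 between other MEF samples, against 0.24 to 0.57 between grafts. The members of a pair differed by more than sampling noise and were kept as separate samples, but nothing in the labels says that the 6 samples are separate cultures, so p-values may be too small. FS015 to FS018 also held traces of transcripts that are abundant in prostate. Genes of prostate secretion and luminal identity took 0.0390% to 0.0638% of their reads. The share was 0.0332% in FS019, 0.0404% in FS020 and 8.59% to 13.8% in prostate. Pbsn, which encodes the secretory protein Probasin, was at 6.59 to 8.55 in these 4 samples and at 0.02 and 0.35 in FS019 and FS020. FS015 and FS020 held macrophage transcripts, with Lyz2, the lysozyme of myeloid cells, at 12.12 and 11.91 against 5.26 to 5.88 in the other MEF samples. For this reason, counts are also given with pairs averaged to 3 samples or without these samples, where they move by over 1.5 times. Leaving out FS015 to FS018 leaves 2 MEF samples, FS019 and FS020, and 45 of the 202 genes followed across alternatives then lost their call.

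The fibroblast label was checked with markers. Col1a1, a chain of type I collagen, was at 17.70 to 18.36 in MEFs, Thy1 at 11.94 to 12.60 and Pdgfra, a receptor of fibroblasts, at 10.54 to 12.13. In grafts they fell by 5.03, 4.23 and 1.87, Pdgfra not without FS015 to FS018. Dcn, which encodes the matrix proteoglycan decorin, was the exception, at 8.003 to 10.80 in MEFs and 9.93 to 12.75 in grafts. Its change of 1.68 did not pass, but it passed as higher in 6 of 27 alternatives, at 1.85 after quantile normalization (limma adjusted p = 0.048). The fall of Col3a1, another collagen gene, lost its call after quantile normalization (-1.44) and without FS015 to FS018 (-2.11). The epithelial markers Krt8 and Krt18 were at 12.43 to 13.84 and 10.91 to 13.44 in grafts, while the prostate markers Pbsn and Hoxb13 were at 5.001 to 8.32 and 1.80 to 6.99 there, against prostate means of 17.60 and 12.91. In these bulk samples, fewer cells of a type and less RNA per cell cannot be told apart.

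Of 16121 genes tested with limma, 6757 passed (41.9%), which means an adjusted p under 0.05 and at least a doubling or halving. Testing needed a linear mean of at least 10 over the 11 samples, so genes near 0 in MEFs could be tested only through the grafts, and for lists of such genes the count of higher members is a description that supports nothing. Higher levels in grafts accounted for 4815 of them (29.9% of the genes tested) and lower levels for 1942 (12%). With MEF pairs averaged, 5661 genes passed, 4005 higher and 1656 lower, all of them among the first. Quantile normalization, which gives all samples the same distribution of values, changed the balance to 3028 higher and 3635 lower, or from 71.3% to 45.4% higher. The median log2 fold change of all tested genes was 0.26, against 0.34 after median centring and -0.14 after quantile normalization, and the values below are to be read against that shift. Centring took the median deviation from the gene means over 10589 genes with levels above 5 in all 11 samples, not over all tested genes. All grafts lay above all MEF samples for 4577 tested genes (28.4%) and below all of them for 3052 (18.9%).

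By fitted differences, gains were larger than losses. By 1 to 2 units on the log2 scale, 1184 genes were higher and 1149 lower. By 4 to 8 units, 1837 were higher and 146 lower, and by more than 8 units 262 were higher and 1 lower. These counts use fitted differences, also for genes not seen in MEFs, so scatter below the floor enters the large gains. Krt23, for example, counts at 9.49, while its smallest difference is 7.08. The counts were not made with smallest differences. The genes that rose started from a median level of 3.04 in MEFs and reached 7.41 in grafts, with a median of 5.93 in prostate. Those that fell came from a median of 10.52 to 8.58, with 8.34 in prostate. In terms of reads, the genes higher in grafts took a median of 26.9% of graft reads and 3.10% of MEF reads, and the genes lower in grafts took 12.04% and 46.1%.

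More genes were gained from below detection than lost to below detection. Not seen in any MEF sample but above 3 reads in each graft were 748 genes, 405 of them above 10 reads in each graft. Another 2438 genes not seen in MEFs were above 3 reads in some grafts but not in all. The reverse, seen in each MEF sample and not in any graft, held for 8 genes, and for 1 of them, Fam150a, at over 10 reads in each MEF sample. The 8 became 14 without FS005 and 21 without FS015 to FS018. Fam150a, on chromosome 1 from 6349537 to 6384812 in mm9, encodes a secreted ligand of a receptor tyrosine kinase. Its level was 6.23 to 7.98 in MEFs (median 6.88) and 0.11 to 0.87 in grafts, below the floor in each of them.

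**Figure D1:**
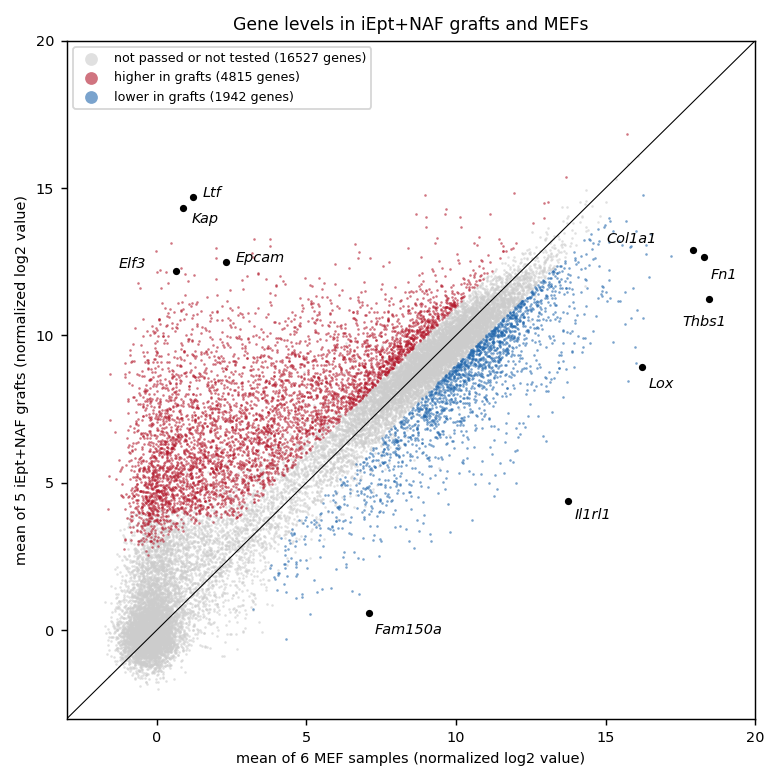
Each point is 1 of 23284 genes, at its mean log2 value in 6 MEF samples (horizontal) and in 5 iEpt+NAF grafts (vertical), with 4815 genes that passed as higher in red, 1942 that passed as lower in blue and a line of equal level. Genes near 0 in MEFs reach up to 14.68 in grafts (Ltf), whereas few genes fall to the floor in grafts, Fam150a at 0.57 being one.

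The adhesion machinery of epithelium rose together. Of 24 genes for epithelial adhesion and junctions, 22 were higher in grafts and 1 lower, with a median log2 fold change of 7.37 against 0.26 for all tested genes, and the 5 grafts each had a median between 6.98 and 7.60 over the MEF mean. Epcam, an adhesion molecule of simple epithelia on chromosome 17 from 88035319 to 88050446 in mm9, was at 12.40, 13.32, 12.97, 12.71 and 11.03 in FS002, FS003, FS005, FS007 and FS008. In MEFs, which had been sorted against it, it was at 1.07 to 4.06 (median 2.22), and its mean in prostate was 12.99. Each graft was far above each MEF sample, with a log2 fold change of 10.16 ± 0.53 (SE; limma adjusted p = 1.07e-07). Cdh1, which encodes E-cadherin, the cadherin of epithelial adherens junctions, was at 13.07, 13.58, 12.86, 13.92 and 13.03 in the grafts and at 2.32 to 4.59 (median 3.29) in MEFs. The grafts differed from each other by about 1 unit and from MEFs by 10.04 ± 0.37 (SE; limma adjusted p = 1.45e-08). Cldn7, a claudin of tight junctions, rose by 9.61. Cdh3, which encodes P-cadherin, was the member that fell, from 9.38 to 11.43 in MEFs to 6.71 to 9.32 in grafts, a change of -2.19. Without FS015 to FS018 it was -2.49 and did not pass (limma adjusted p = 0.0555).

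The regulators of epithelial genes followed. Of 24 genes for epithelial transcription and splicing, 20 were higher in grafts and 0 lower, with a median of 6.35, or 6.11 when genes not seen in MEFs stand at their smallest difference. Elf3, an ETS factor of epithelium on chromosome 1 from 137150151 to 137155049 in mm9, was at 11.88, 12.49, 11.62, 13.11 and 11.91 in the grafts, listed as before. Its level in MEFs was -2.19 to 2.87 (median 0.67), and 1 of 6 MEF samples was above 3 reads. The graft levels were close to each other and the change was 11.57 ± 0.73 (SE; limma adjusted p = 3.1e-07), with a prostate mean of 9.52. Esrp1, which directs epithelial splicing, rose by 9.78, Grhl2, a grainyhead factor of epithelial junction genes, by 9.03, and Ehf, another ETS factor, by 8.997. Their prostate means were 12.002, 11.03 and 14.14, against graft ranges of 10.60 to 11.97, 9.70 to 11.25 and 10.80 to 12.83.

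Keratins, the intermediate filaments of epithelial cells, were higher. All 6 tested keratins of simple epithelium and all 13 of stratified epithelium passed as higher, with medians of 6.26 and 8.36 (7.93 with smallest differences). Krt8, on chromosome 15 from 101827142 to 101834773 in mm9, is a luminal keratin and its level in the grafts was 12.43, 13.45, 13.48, 13.84 and 13.10, against 2.23 to 5.71 (median 3.66) in MEFs. Its partner Krt18 was at 12.51, 12.93, 12.34, 13.44 and 10.91 in the grafts and at 4.23 to 8.29 (median 5.48) in MEFs. Both were clear of MEFs in all grafts, with changes of 9.47 and 6.46, and the lowest Krt18 level was in FS008. Krt7, of ductal and urothelial cells, rose by 6.07 to levels of 11.56 to 14.49, and Krt23 by at least 7.08.

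The stratified keratins divided the grafts. Krt5, a keratin of basal cells, was at 13.73, 13.12, 11.67, 11.90 and 5.13, and its partner Krt14 at 12.11, 11.51, 9.73, 11.54 and 5.73, so that FS008 was the low sample for both. MEF levels were -1.47 to 3.41 (median 1.28) for Krt5 and 1.68 to 2.69 for Krt14, and each graft, FS008 included, was above them. Krt4, of mucosal stratified epithelium, was at 13.98, 14.19, 11.64, 13.40 and 7.53 and was not seen in MEFs, which makes the change at least 10.06. Krt6a, a keratin of the mouth, of hair follicles and of wounded skin, was at 12.41, 11.32, 10.55, 13.96 and 10.64, at least 9.69 over MEFs, where it was not seen. The prostate mean of Krt6a was 2.69. Krt6b, close to Krt6a in sequence so that reads could be shared between them, rose by at least 6.50. Trp63, which encodes the basal cell factor p63, was at 10.45, 10.09, 9.35, 9.34 and 7.54 in the grafts, and in MEFs at 2.54 to 3.78 in FS015, FS016, FS019 and FS020 but at 7.14 and 7.26 in FS017 and FS018.

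Of 12 genes for basal lamina and hemidesmosome, the anchor of basal cells, 6 were higher and 2 lower. Lad1, a component of anchoring filaments, rose by 9.08, Col17a1, a collagen of the hemidesmosome, by 6.75, Lamb3, a laminin chain, by 6.02, and Itgb4, the integrin of the hemidesmosome, by 6.00. Col17a1 was at 5.99 in FS008 and at 10.93 to 11.87 in the other grafts. The linker proteins Plec and Dst, which cells of many kinds use, fell by 2.07 and 1.65.

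**Figure D2:**
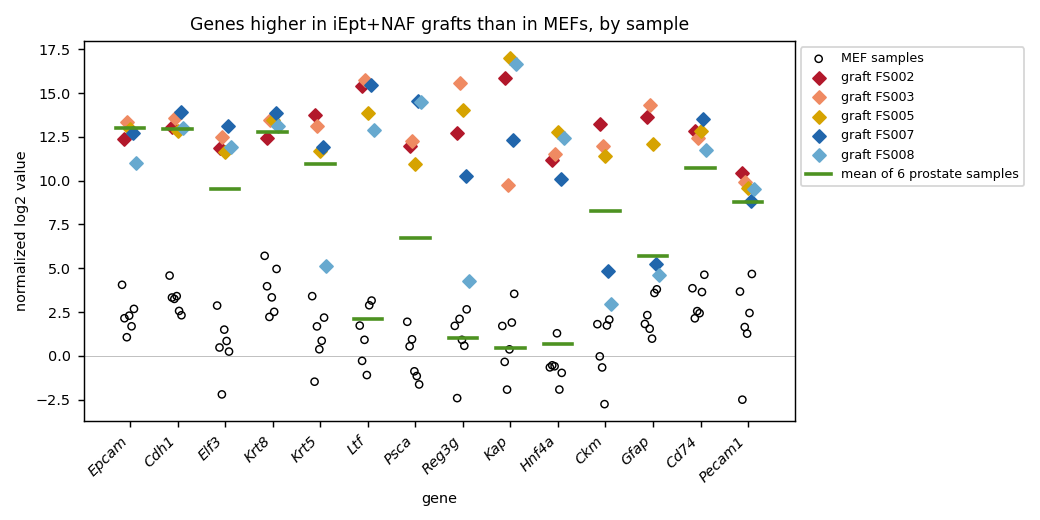
Log2 value (vertical) of 14 genes that passed as higher, in each of 6 MEF samples (open circles) and 5 grafts (coloured diamonds), with the mean of 6 prostate samples as a bar. Epcam, Cdh1, Elf3 and Krt8 sit together in all grafts, whereas Krt5 and Reg3g are low in FS008 and Ckm and Gfap are low in FS007 and FS008.

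Secretions of mucosal surfaces rose strongly. Ltf, which encodes the iron-binding defence protein lactoferrin and lies on chromosome 9 from 110921796 to 110945270 in mm9, was at 15.39, 15.77, 13.87, 15.48 and 12.91 in the grafts. In MEFs it was at -1.09 to 3.16 (median 1.33), and its prostate mean was 2.09. Grafts and MEFs stood 13.46 ± 0.83 apart (SE; limma adjusted p = 2.64e-07), the largest fitted rise. Kap, a gene of the nephron, rose by 13.44 ± 1.38 (SE). For each of these genes, 2 MEF samples were above 3 reads, and the order of the 2 genes is not resolved. All 25 tested genes for mucosal defence and secretion passed as higher, with a median of 7.74 (7.18 with smallest differences), and they took 0.393% to 2.37% of graft reads against 0.0177% to 0.0408% of MEF reads. Other members varied more. Reg3g, an antibacterial lectin of gut and airway, was at 12.74, 15.56, 14.03, 10.28 and 4.27 in the grafts, and Dmbt1, a scavenger receptor of mucus, at 12.57, 15.32, 14.60, 6.66 and 6.27. Bpifa1, a secretion of the upper airway, was at 12.73, 15.32, 13.37, 5.42 and 4.45. In all of these, FS002, FS003 and FS005 were high and FS007 or FS008 low, and the fitted changes were 10.44, 10.36 and, for Bpifa1, which was not seen in MEFs, at least 8.18. The call of Bpifa1 was lost without FS015 to FS018.

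Psca, a surface antigen of urothelium and stomach on chromosome 15 from 74545269 to 74547493 in mm9, was at 11.98, 12.29, 10.97, 14.53 and 14.51 in the grafts and at -1.63 to 1.95 (median -0.16) in MEFs. Here FS007 and FS008 were the highest samples, the change was 12.89 ± 0.82 (SE; limma adjusted p = 3.37e-07) and the prostate mean was 6.76. Of 8 tested urothelial genes, 7 were higher (5 with MEF pairs averaged, and 4 without FS015 to FS018), among them Sprr1a and Snx31, which rose by 6.85 and 5.80. Upk3a, a plaque protein of the urothelial surface, was at 7.64, 8.06, 6.13, 4.79 and 2.23 in the grafts and up to 2.25 in MEFs, so that the groups overlapped, and it did not pass without FS015 to FS018. Of 17 tested genes for the cornified envelope, the protein coat of stratified surface cells, 14 were higher (8 without FS015 to FS018), with a median of 7.01 and of 5.13 with smallest differences. S100a14 rose by 9.77. Calml3, a calmodulin-like protein of keratinocytes, Serpinb5, a serpin of basal cells, and Cnfn, cornifelin, were at 3.43, 5.12 and -0.04 in FS008 and above 8 in the other grafts. Cnfn overlapped with MEFs and did not pass without FS015 to FS018.

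Of 25 genes of prostate secretion and luminal identity, 14 were higher and 3 lower, with a median of 2.86. Among all tested genes, 29.9% were higher and 12% lower, so that the lower members were at the share of all genes. After quantile normalization 11 were higher, beside 3028 of all 16121 tested genes, and the median was 1.46. The median was 3.86 without FS015 to FS018, in which prostate transcripts are present. The list took 0.127% to 0.337% of graft reads, 0.0332% to 0.0638% of MEF reads and 8.59% to 13.8% of prostate reads. Tmprss2, a membrane serine protease of luminal cells, was at 10.93, 11.94, 11.73, 10.02 and 10.05 in the grafts and at 1.21 to 3.98 (median 2.44) in MEFs, with a prostate mean of 12.69. It rose by 8.48 ± 0.56 (SE; limma adjusted p = 4.22e-07) with the grafts within 2 units of each other. Gsdmc2, a gasdermin, rose by at least 6.07 and Glb1l2, a galactosidase-like gene, by 6.19. Pbsn did not pass, with a change of 1.45 over all 6 MEF samples, and passed at 6.16 (limma adjusted p = 0.00364) against FS019 and FS020. The graft levels of Pbsn lay within or below its range in FS015 to FS018, and whether they are traces of the same kind was not tested. Hoxb13, a Hox gene of the prostate, did not pass at 1.23, although it did at 1.93 without FS008 (limma adjusted p = 0.0406), and its sign turned to -0.999 after quantile normalization. Hoxd13, of limb and urogenital tract, was at 9.85 to 11.58 in MEFs (median 11.26) and at 8.05, 8.74, 8.86, 8.48 and 4.19 in the grafts, a fall of 3.26 that did not pass without FS015 to FS018. Crabp1, which binds retinoic acid, fell by 3.12.

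Seminal vesicle secretions were present in some grafts. Of 6 tested, 4 were higher (2 with MEF pairs averaged and 0 without FS015 to FS018). Among all tested genes, 29.9% were higher, with 4005 of 16121 and 3056 of 16121 in these 2 alternatives. Svs2, a clotting protein of the ejaculate, was at 7.99, 8.33, 12.58, 2.49 and 2.05, and Svs4 at 8.11, 9.56, 12.12, 2.31 and 1.48, with FS005 the highest graft and FS007 and FS008 near the floor. Svs5 and Pate4 were highest in FS005 too, at 11.85 and 12.33. The list took 0.141% of the reads of FS005.

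Nephron genes were the other large gain, and the part of host kidney tissue in it was not tested. Of 33 genes of the nephron, the filtering unit of the host kidney, 30 were higher and 1 lower, with a median of 8.18 (7.11 with smallest differences). Kap, an androgen-regulated protein of the proximal tubule on chromosome 6 from 133799873 to 133803685 in mm9, was at 15.84, 9.77, 16.997, 12.34 and 16.64 in the grafts and at -1.92 to 3.54 (median 1.04) in MEFs. Slc34a1, a phosphate transporter of the proximal tubule, was at 13.24, 7.19, 14.72, 10.44 and 15.21 in the grafts. FS002, FS005 and FS008 were high for both, FS003 lowest, and the changes were 13.44 ± 1.38 and 12.16 ± 1.37 (SE; limma adjusted p = 9.38e-06 and 1.91e-05). Napsa, an aspartic protease of kidney and lung, had the same high samples, at 12.50, 12.06 and 11.83 in FS002, FS005 and FS008 and 7.80 and 8.67 in FS003 and FS007. Outside the list, Slc27a2, for fatty acid metabolism, and Acsm2, of the mitochondria of tubule cells, rose by 11.15 and 12.09. The nephron list took 1.05%, 1.74% and 1.70% of the reads of FS002, FS005 and FS008, 0.219% and 0.180% of those of FS003 and FS007, and 0.149% to 0.343% of MEF reads. Most of the MEF share was Spp1, and without it the list took 0.887%, 0.100%, 1.698%, 0.158% and 1.64% of the reads of FS002, FS003, FS005, FS007 and FS008 and 0.00742% to 0.0451% of MEF reads. Spp1, which encodes osteopontin and is expressed by bone, fibroblasts and tubules, was the member that fell, from 14.60 to 15.84 in MEFs to 11.74 to 14.48, and this call was lost after quantile normalization and without FS015 to FS018, where the change was -2.21 (limma adjusted p = 0.0553).

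Hnf4a, a nuclear receptor of kidney tubule, liver and gut on chromosome 2 from 163332544 to 163398646 in mm9, did not follow that order. It was at 11.20, 11.55, 12.75, 10.08 and 12.41 in the grafts, with FS003 above FS002, was not seen in MEFs and rose by at least 9.52. Cyp2a5, a cytochrome P450 whose reads could be shared with a close copy, was at 11.41, 12.38, 10.90, 10.30 and 13.85 and rose by at least 9.69. Klk1, a kallikrein of kidney and salivary gland, rose by at least 8.47, and its prostate mean was 0.30. Ckmt1, a mitochondrial creatine kinase, was at 11.18 to 12.93 in the grafts and rose by 11.47. When FS002, FS005 and FS008 were left out, 5954 genes passed in all, 4055 higher and 1899 lower, and 25 of 33 nephron genes were higher.

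In absolute amount, the 5 largest rises were those of Rn45s, Gpx3, Kap, Gsto1 and 2310057J18Rik. Rn45s, the ribosomal RNA precursor, was at 16.62 to 17.13 in grafts and 15.42 to 16.20 in MEFs, a change of 1.15 in a transcript that library preparation is meant to remove, and it did not pass without FS015 to FS018. Gpx3, a secreted glutathione peroxidase of kidney, was at 15.88, 11.80, 16.39, 12.48 and 17.28 in the grafts, with the same high samples as Kap. Its mean in prostate was 16.56. Gsto1, a glutathione transferase, was highest in FS007, at 16.97, and did not pass without FS015 to FS018. 2310057J18Rik, a gene without a common name, was highest in FS002, at 17.33.

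Markers of cells that a graft takes from its host, or that can form in it, were higher too. Of 22 endothelial genes, 18 were higher and 2 lower, with a median of 5.19. Pecam1, which encodes CD31, was at 10.45, 9.90, 9.58, 8.87 and 9.51 in the grafts, with a MEF range of -2.50 to 4.68 (median 2.05) and a change of 7.79. Tie1, a receptor of vessels, and Cldn5, their claudin, rose by 8.25 and at least 5.79, and Sox17 by at least 5.67. Erg and Flt1, which were at 6.83 to 9.60 and 8.68 to 9.95 in MEFs, fell by 1.57 and 1.33, and neither call held with MEF pairs averaged.

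Macrophages and other myeloid cells gave 23 of 25 genes higher and 0 lower, with a median of 4.80. Cd74, the invariant chain of class II molecules, was at 12.83, 12.42, 12.83, 13.53 and 11.75 in the grafts and at 2.15 to 4.63 (median 3.10) in MEFs, and rose by 9.46 ± 0.47 (SE; limma adjusted p = 7.86e-08). H2-Aa and H2-Ab1, chains of a class II molecule, rose by 10.23 and 8.25, and Itgax, of dendritic cells, by at least 6.64. These 4 genes were low in all MEF samples, whereas Lyz2 in FS015 and FS020 lay within the graft range of 11.87 to 13.72, and Ptprc, which encodes the sorted-out CD45, was at 8.83 and 8.50 there against 8.23 to 9.85 in grafts. Without FS015 and FS020, all 25 genes were higher and the median was 6.84, and 7 were higher without FS015 to FS018, which leaves FS020 as 1 of 2 MEF samples. Leaving out FS002, FS005 and FS008 also left 7. Over all tested genes, 3056 of 16121 were higher without FS015 to FS018. Without those 3 grafts 4055 of 16121 were higher, so that the list was then near the share of all genes. Of 20 lymphocyte genes, 9 reached the level needed for testing and passed as higher, a count that the testing level had largely fixed, since their MEF levels were low. Cd4, a co-receptor of helper T cells, was at 4.91, 5.28, 5.87, 7.41 and 6.62 in the grafts and at least 3.94 over MEFs. Gzma, a granzyme of killer cells, and Igj, of antibody-secreting cells, were highest in FS007, at 8.09 and 9.29. Of 11 genes of blood cells and haemoglobin, 4 were tested and 2 were higher, Slc4a1 by 5.04 and Alas2 by 3.85, both of red cells. The other two, Pf4 and Ppbp of platelets, did not pass, with log2 fold changes of 2.62 and -1.27. The list took a median of 0.0026% of graft reads and 0.0040% of MEF reads.

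The interferon response gave 23 of 26 genes higher and 0 lower, with a median of 3.34. Oas3, an antiviral enzyme, was at 7.19, 8.12, 8.15, 11.05 and 7.75, so that FS007 stood above the other grafts, and Oas2, Mx1 and Oasl1 were also highest there, at 11.38, 9.43 and 10.51. The list took 0.391% of the reads of FS007, 0.0871% to 0.128% of those of the other grafts and 0.0225% to 0.0445% of MEF reads.

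Muscle and nerve transcripts were high in FS002, FS003 and FS005. Of 22 tested genes of skeletal muscle, 21 were higher (13 with MEF pairs averaged, and 3 without FS015 to FS018), with a median of 5.68. Among all tested genes, 29.9% were higher, and 4005 of 16121 with MEF pairs averaged. Without FS015 to FS018, 3056 of 16121 were higher, a larger share than that of the muscle list in that fit. Ckm, the creatine kinase of muscle, was at 13.25, 11.98, 11.41, 4.84 and 2.99, and Atp2a1, the calcium pump of fast fibres, at 13.55, 12.61, 12.68, 5.47 and 5.40. Myl1, a myosin light chain, had the same low samples, at 3.41 and 2.20 in FS007 and FS008, while Pvalb, parvalbumin, was low in FS007 alone, at 2.20. Neither Ckm nor Myl1 passed without FS015 to FS018. The muscle list took 0.948%, 0.542% and 0.622% of the reads of the first 3 grafts, and 0.0527% and 0.0158% of those of FS007 and FS008.

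Neuronal genes were higher in 16 of 21 cases and glial genes in 9 of 13, with medians of 4.69 and 3.91. With MEF pairs averaged the counts were 11 and 5, and without FS015 to FS018 they were 6 and 3. Over all tested genes, 4005 and 3056 of 16121 were higher in these 2 fits. The glial list was thus near the share of all genes without FS015 to FS018. Gfap, a filament of astrocytes and of non-myelinating Schwann and enteric glia, was at 13.62, 14.34, 12.08, 5.23 and 4.60 in the grafts and at 0.99 to 3.80 (median 2.08) in MEFs. Olig1 and Olig2, factors of oligodendrocytes, were at 8.12 to 9.14 and 6.68 to 7.09 in FS002, FS003 and FS005 and at 2.00 or less in FS007 and FS008. The calls of Gfap, Olig1, Olig2 and Elavl3 were lost without FS015 to FS018. Erbb3, which glia share with many epithelia, was at 10.40 to 11.79 in all grafts. Of the neuronal genes, Elavl3 was at 8.56, 8.09, 9.51, 2.63 and 3.11, Chga, of neuroendocrine granules, at 8.35, 9.78, 8.40, 4.58 and 4.21, and Nefl, a neurofilament, at 6.19 to 9.79. Of 10 adipocyte genes, 2 were higher (1 with MEF pairs averaged), a smaller share than the 29.9% of all tested genes. Lipe, a lipase, rose by 1.89, and Cfd, adipsin, was at 12.24 in FS002 and at 2.17 in FS008, with a call that was lost with MEF pairs averaged.

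**Figure D3:**
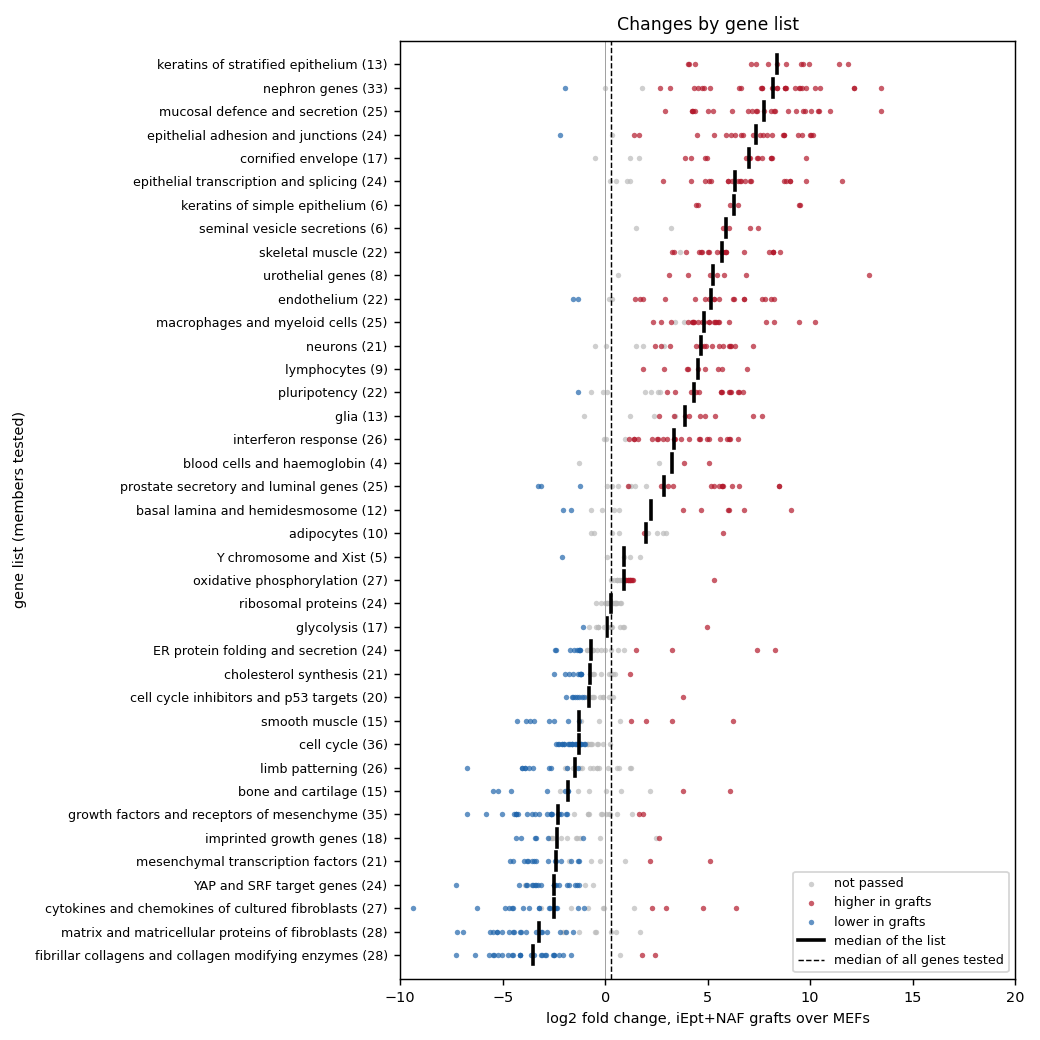
Log2 fold change of grafts over MEFs (horizontal) of each tested member of 39 gene lists (vertical, with the number tested), with the list's median as a black mark and the median of all tested genes, 0.26, as a dashed line. Lists of epithelium, secretion and nephron lie furthest to the right, at medians up to 8.36, and those of matrix and collagen have medians of -3.24 and -3.54.

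The spread between grafts was wider for genes that rose than for genes that fell, and the same held between MEF samples. Among the genes higher in grafts, the median SD between grafts was 1.01, 39.98% kept within a range of 2 units and 29.5% spread over more than 4. Among the genes lower in grafts, the median SD was 0.56, 68.1% kept within 2 units and 5.82% spread over more than 4. Between MEF samples, the median SD was 0.80 for the genes higher in grafts and 0.29 for those lower. A large change can pass at a wider spread than a small one. How far this and the scatter of low levels set the contrast was not tested. The junction genes had nearly equal medians in the 5 grafts, with an SD of 0.27, whereas seminal vesicle, skeletal muscle and cornified envelope genes had SDs of 4.38, 3.84 and 3.11. The 5 passing genes with the widest spread were Apoa4, an apolipoprotein of gut, at 8.42, 13.69, 12.34, 1.49 and 2.55, Spink4, a peptide of goblet cells, Trh, which encodes thyrotropin-releasing hormone, Reg3b, a gut lectin, and Cym, the milk-clotting protease of young stomach. Spink4 ranged from -1.57 in FS008 to 11.53 in FS003, and Cym from 4.06 in FS008 to 15.46 in FS003. Without FS015 to FS018 none of these 5 passed. The calls of Apoa4, Spink4 and Trh were also lost with MEF pairs averaged, and those of Spink4 and Trh also without 1 graft, FS003 or FS005 for Spink4 and FS002 for Trh.

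**Figure D4:**
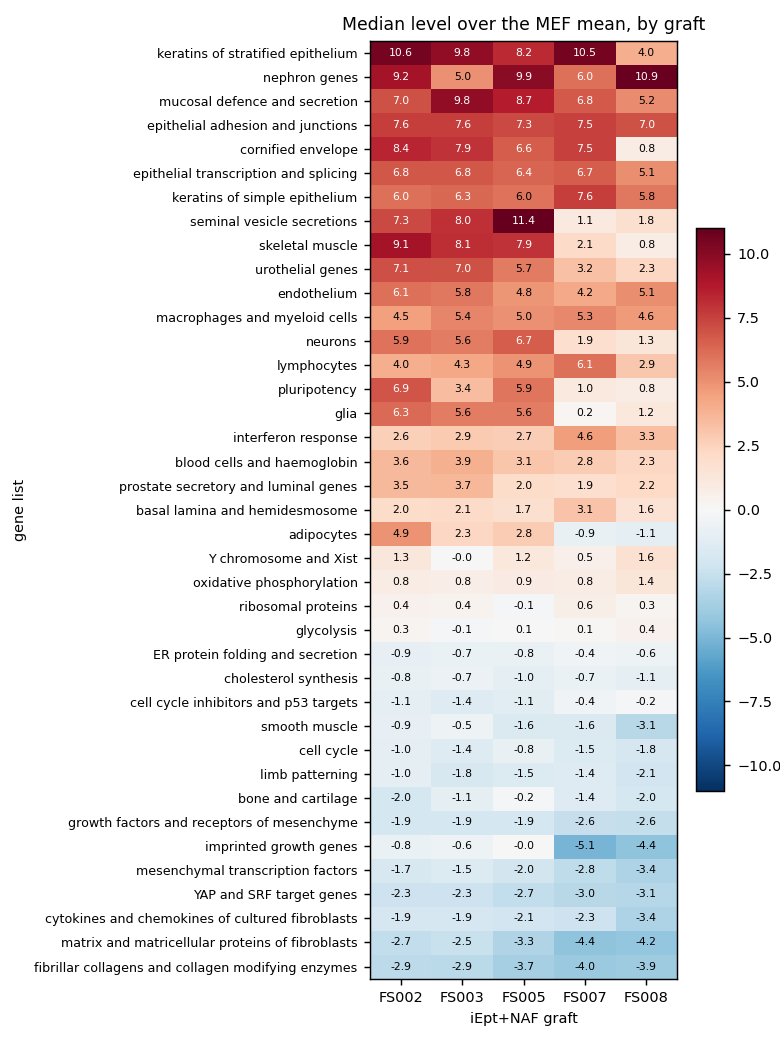
Median log2 difference from the MEF mean (colour and printed value) for 39 gene lists (rows) in each graft (columns). Junction genes are alike across grafts, nephron genes are highest in FS002, FS005 and FS008, and seminal vesicle, muscle, neuronal and glial genes are high in FS002, FS003 and FS005 and low in FS007 and FS008.

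On the side of loss, most genes of the matrix made by fibroblasts fell. Of 28 collagens and collagen-modifying enzymes, 25 were lower and 2 higher, with a median of -3.54, and the list went from 4.28% to 5.73% of MEF reads to 0.177% to 0.751% of graft reads. Col1a1, on chromosome 11 from 94797538 to 94814356 in mm9, was at 13.63, 14.06, 12.23, 12.78 and 11.78 in the grafts and at 17.70 to 18.36 (median 17.86) in MEFs, and fell by 5.03 ± 0.37 (SE; limma adjusted p = 9.37e-07). Lox, whose enzyme crosslinks collagen and elastin, was at 9.99, 10.91, 8.90, 6.84 and 8.002 in the grafts and at 15.57 to 17.17 (median 15.91) in MEFs. It fell by 7.295 ± 0.65 (SE; limma adjusted p = 3.5e-06), with no graft within 4 units of a MEF sample. Col12a1, a fibril-associated collagen, fell by 6.36, Col5a2, of fibril cores, by 5.65 and Col1a2 by 4.52. Col2a1, the collagen of cartilage, was at 9.14, 7.73, 12.12, 2.05 and 2.20 in the grafts and at 10.61 to 13.70 in MEFs, and its call was lost with MEF pairs averaged. The members that rose, Col11a2, also of cartilage, and Leprel1, a prolyl hydroxylase, did not pass after quantile normalization.

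Of 28 matrix and matricellular proteins, 20 were lower and 0 higher, with a median of -3.24. Thbs1, which encodes thrombospondin 1 and lies on chromosome 2 from 117937612 to 117952869 in mm9, was at 11.20, 11.28, 10.10, 11.22 and 12.31 in the grafts and at 17.74 to 18.83 (median 18.77) in MEFs. It was the largest fall in absolute amount and was 7.23 ± 0.37 lower (SE; limma adjusted p = 8.4e-08). Fn1, fibronectin, on chromosome 1 from 71632094 to 71699774, was at 12.24, 12.79, 11.73, 12.72 and 13.86 in the grafts and 17.90 to 18.90 (median 18.26) in MEFs. FS008 was the highest graft for both of these genes and yet 4 units or more below each MEF sample. Tnc, tenascin C, fell by 6.95 and Fbn1, of microfibrils, by 5.47. Bgn, which encodes biglycan, fell by 4.48. Outside the list, Itga11, the fibroblast integrin that binds collagen I, was at 4.37 to 5.53 in grafts and 11.39 to 12.42 in MEFs, a fall of 7.01.

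The largest fall of all was in the cytokine system of cultured fibroblasts. Il1rl1, which encodes the receptor of interleukin 33 and a secreted decoy form and lies on chromosome 1 from 40486415 to 40522260 in mm9, was at 3.99, 4.84, 4.46, 4.74 and 3.85 in the grafts. In MEFs it was at 12.23 to 14.69 (median 14.37), a difference of -9.38 ± 0.50 (SE; limma adjusted p = 1.12e-07). It was the single gene that fell by more than 8 units. Its ligand Il33 went the other way, from 3.31 to 6.24 in MEFs to 10.01, 10.50, 8.89, 9.94 and 7.46 in the grafts, a rise of 4.78. Of 27 cytokine, chemokine and related genes, 17 were lower and 4 higher (14 and 2 with MEF pairs averaged). Inhba, a subunit of activin, fell by 6.27 and Timp1, an inhibitor of matrix proteases, by 4.91, while Ccl8, a chemokine of macrophages, rose by 6.37.

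Growth factors and receptors of mesenchyme were lower in 22 of 35 cases and higher in 2, with a median of -2.28. Grem1, an antagonist of BMP signals in the limb bud on chromosome 2 from 113586321 to 113598803 in mm9, was at 6.21, 4.96, 4.46, 1.97 and 5.11 in the grafts and at 9.99 to 12.44 (median 11.43) in MEFs. It fell by 6.74 ± 0.72 (SE; limma adjusted p = 1.22e-05). Fgf7, a factor that mesenchyme sends to epithelium, fell by 5.05 to levels of 4.09 to 6.04, and Cdh11, the cadherin of mesenchyme, by 4.44. Cd34, of vessels and stem cells, and Nt5e, which encodes CD73, rose by 1.83 and 1.63, and Cd34 did not pass without FS015 to FS018. Outside the lists, the Wnt agonist Rspo2 fell by 6.46 and the Wnt target Wisp1 by 6.31. Svep1, a matrix protein, and Gm2115 fell by 6.58 and 6.77. Dnm3os, an antisense transcript whose reads cannot be told apart from those of its partner where strand was not used, fell by 6.57.

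Transcription factors of mesenchyme were lower in 15 of 21 cases and higher in 2, with a median of -2.42. Prrx1, a homeobox factor of limb mesenchyme, was at 9.37, 9.44, 9.37, 8.32 and 7.302 in the grafts and 13.09 to 13.85 (median 13.25) in MEFs, and fell by 4.63 ± 0.37 (SE; limma adjusted p = 1.46e-06). Prrx2 fell by 4.52 and Foxc2 by 3.96. Tcf21, of kidney and urogenital mesenchyme, rose by 5.11 to levels of 4.26 to 8.15, with a prostate mean of 8.28, and this call did not hold without FS015 to FS018. Heyl, a Notch target of pericytes, rose by 2.18 and lost its call in 8 of 27 alternatives. Of 26 limb patterning genes, 11 were lower (8 with MEF pairs averaged, 5 without FS015 to FS018 and 18 after quantile normalization) and 0 higher. Of all tested genes, 12% were lower, with 1437 of 16121 lower without FS015 to FS018 and 3635 after quantile normalization. Shox2, which did not pass without FS015 to FS018, fell by 4.06, Tbx18 by 4.04 and Hoxd12, of the distal limb, by 3.93.

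Targets of YAP and SRF, which respond to stretch and actin tension, were lower in 21 of 24 cases and higher in 0, with a median of -2.49. Cyr61, a matricellular YAP target, was at 9.16 to 10.30 in grafts and 13.25 to 14.78 in MEFs, and Nuak1, a kinase, fell by 3.80. Of 15 smooth muscle genes, 8 were lower and 4 higher (1 without FS015 to FS018). The higher members were a smaller share than the 29.9% of all tested genes, of which 12% were lower. Acta2, which encodes smooth muscle α-actin and is abundant in cultured fibroblasts, was at 12.65, 12.91, 10.83, 11.27 and 10.32 in the grafts and 15.52 to 16.31 (median 15.84) in MEFs, a fall of 4.31. Tagln fell by 3.88 and Lmod1, which caps actin filaments, fell by 3.66. Pcp4 and Des, of smooth muscle and, for Des, of all muscle, rose by 6.25 and 3.24, and the call of Des was lost without FS015 to FS018. Bone and cartilage genes were lower in 7 of 15 cases and higher in 2 (2 and 2 without FS015 to FS018). Of all tested genes, 12% were lower and 29.9% higher. Without FS015 to FS018, 1437 of 16121 were lower and 3056 higher, so that the lower members of the list were then near the share of all genes. Col10a1, of hypertrophic cartilage, fell by 5.25. Comp, a cartilage matrix protein, was at 12.38 and 12.39 in FS018 and FS017 and at 5.31 to 6.81 in the other MEF samples. Alpl, the phosphatase of bone and kidney tubule, rose by 6.07, and Lect1, chondromodulin, by 3.82, which did not hold without FS015 and FS020.

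**Figure D5:**
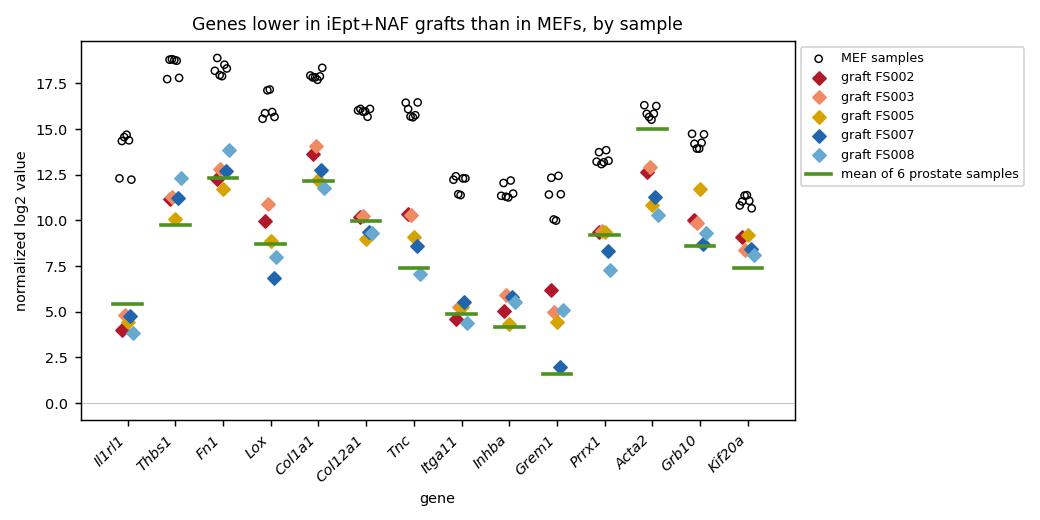
Log2 value (vertical) of 14 genes that passed as lower, in each of 6 MEF samples (open circles) and 5 grafts (coloured diamonds), with the mean of 6 prostate samples as a bar. The groups do not overlap for any of the 14, from Il1rl1, which fell by 9.38, to Kif20a, which fell by 2.41.

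Proliferation genes were lower. Of 36 cell cycle genes, 25 were lower and 0 higher, with a median of -1.30, and their share of reads was 0.257% to 0.414% in MEFs, 0.105% to 0.219% in grafts and 0.0290% to 0.0472% in prostate. Kif20a, a kinesin of cell division, was at 9.12, 8.40, 9.22, 8.43 and 8.10 in the grafts and at 10.66 to 11.38 (median 11.05) in MEFs. It fell by 2.41 ± 0.22 (SE; limma adjusted p = 3.95e-06), as did Cenpe, a motor of kinetochores, by 2.31, Tpx2, of the spindle, by 2.25, and Ccne1, the cyclin that starts DNA replication, by 2.11. Cell cycle inhibitors and p53 targets were lower in 8 of 20 cases and higher in 1, against 12% and 29.9% of all tested genes. Plk2 fell by 1.91, Cdkn2b, an inhibitor of early G1 kinases, by 1.63 and Ccng1 by 1.59, with Ccng1 not passing after quantile normalization. Perp, which is also a desmosome protein of stratified epithelium, rose by 3.81.

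Of 18 tested imprinted growth genes, 6 were lower (3 with MEF pairs averaged) and 1 higher. Of all tested genes, 12% were lower (1656 of 16121 with MEF pairs averaged). Grb10, which restrains insulin-like growth factor signals, was at 10.01, 9.85, 11.73, 8.72 and 9.29 in the grafts and at 13.93 to 14.74 (median 14.23) in MEFs, a fall of 4.38 ± 0.44 (SE; limma adjusted p = 7.68e-06). Igf2, a fetal growth factor, fell by 3.42. The noncoding RNAs Rian and Meg3, which come from the same imprinted domain, were at 10.61, 11.44, 11.06, 3.69 and 5.35 and at 10.12, 11.44, 11.89, 4.94 and 5.63, so that FS007 and FS008 were low for both, while MEF levels were 12.003 to 12.92 and 11.76 to 12.70. Their calls were lost with MEF pairs averaged, and that of Meg3 also without FS007 or FS008. Phlda2 rose by 2.61. Xist, the RNA of the inactive X in females, was at 9.34, 12.79, 11.49, 13.37 and 8.09 in the grafts and 12.26 to 13.63 in MEFs, which pool both sexes, and its call was lost in 16 of 27 alternatives.

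Energy metabolism moved moderately. Of 27 genes of oxidative phosphorylation, 11 were higher and 0 lower (19 and 0 after quantile normalization, and 7 and 0 without grafts FS002, FS005 and FS008), with a median of 0.91 against 0.26 for all tested genes, and 24 had all grafts above all MEF samples. Of all tested genes, 29.9% were higher and 28.4% had all grafts above all MEF samples. After quantile normalization, 3028 of 16121 tested genes were higher. Without grafts FS002, FS005 and FS008 it was 4055 of 16121, so that the list was then near the share of all genes. Ppargc1a, the coactivator that drives mitochondrial genes, was at 8.87, 8.73, 9.05, 10.60 and 10.97 in the grafts and at 3.69 to 5.16 (median 4.21) in MEFs. It rose by 5.32 ± 0.46 (SE; limma adjusted p = 2.99e-06) and the respiratory chain subunits Cyc1, Uqcrfs1 and Ndufa1 by 1.37, 1.30 and 1.27. Of 17 glycolysis genes, 1 rose, Aldoc by 4.97, and 1 fell, Pkm2 by 1.10. Cholesterol synthesis was lower in 10 of 21 genes (5 without grafts FS002, FS005 and FS008) and higher in 1. Of all tested genes, 12% were lower. The enzymes Hsd17b7, Sc4mol and Cyp51 fell by 1.97, 1.77 and 1.56, while Ebp rose by 1.20. Ribosomal proteins passed in 0 of 24 cases by limma, with a median of 0.30, and in 7 higher and 1 lower after quantile normalization.

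Genes for protein folding and secretion in the endoplasmic reticulum were lower in 9 of 24 cases (2 after quantile normalization) and higher in 4. Of all tested genes, 12% were lower, and 3635 of 16121 after quantile normalization. The 4 members that were higher are a smaller share than the 29.9% of all tested genes. Of those that rose, Ern2, the stress sensor of mucous cells, was at 6.77, 9.14, 7.61, 8.97 and 7.64 in the grafts and rose by at least 5.94, Agr2, a disulfide isomerase of mucous and prostate glands, was at 9.63, 11.75, 10.96, 10.89 and 9.22 and rose by 7.42, and Creb3l4 rose by 3.27. Creb3l1, a factor of collagen-secreting cells, fell by 2.44, and this did not hold without FS015 to FS018.

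The mouse genes of the factors used to reprogram the cells did not change alike. The values are for mouse genes, and whether reads of the introduced human sequences were counted with them is not given in the sources used here. These values therefore do not give the levels of the introduced human factors. In a separate count of the paper, reads of human SOX2, KLF4 and MYC were found in each graft, most in FS007 and FS008. Human OCT4 differed from this, with most reads in FS005 and none in FS008. Sox2 was at 10.75, 10.21, 10.50, 10.73 and 10.01 in the grafts and at 3.14 to 4.91 (median 3.93) in MEFs, a rise of 6.49 ± 0.30 (SE; limma adjusted p = 5.5e-08) that was even across grafts. Pou5f1, the mouse gene of OCT4, was at 9.79, 4.52, 8.96, 1.55 and 0.81 in the grafts and was not seen in MEFs, so that FS002 and FS005 were high and FS007 and FS008 below the floor, and its call was lost without FS015 to FS018. Klf4 did not differ detectably, at 9.44 to 11.05 in grafts and 9.36 to 10.51 in MEFs (log2 fold change 0.08, limma adjusted p = 0.826). Myc was at 9.42, 9.67, 9.23, 9.07 and 6.69 in the grafts and at 9.89 to 10.55 in MEFs, and its fall of 1.34 did not pass without FS008 or with MEF pairs averaged. Foxa1, a pioneer factor of prostate and other endodermal glands, was at 10.77, 11.40, 10.76, 9.37 and 8.97 in the grafts and at 3.59 to 5.32 (median 4.09) in MEFs, with a rise of 6.01 ± 0.47 (SE; limma adjusted p = 1.35e-06) and a prostate mean of 12.73. The Foxa1 introduced by lentivirus was the mouse gene, so that transcripts of the introduced and the cells' own copies cannot be told apart in these values. The paper's separate count set reads of the untranslated end of Foxa1, which the introduced copy lacks, against coding reads. Such reads were found in FS002, FS003 and FS005 but not in FS007 and FS008. The paper takes a low ratio as a sign of introduced transcripts.

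Of 22 tested pluripotency genes, 14 were higher and 1 lower, with a median of 4.32 and of 2.78 with smallest differences. The count of higher genes was 8 with MEF pairs averaged and 4 without FS015 to FS018. Among all tested genes, 29.9% were higher, and 4005 of 16121 with MEF pairs averaged. Without FS015 to FS018, 3056 of 16121 were higher, so that the list was then near the share of all genes. Lin28a, an RNA-binding protein of embryonic cells, was at 9.75, 6.504, 9.75, 2.30 and -0.59 in the grafts, high and low in the same samples as Pou5f1, and its call was lost without FS015 to FS018. Tfcp2l1, which is also a factor of kidney collecting ducts and other epithelia, was at 11.38 to 12.29 in all grafts and at 12.02 in prostate. Gdf3, a TGF-beta family ligand of embryonic cells, was at 7.65, 6.67, 7.94, 4.50 and 5.96 in the grafts and rose by 6.15.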

How the data were processed

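RNA was sequenced by the authors as single-end Illumina TruSeq libraries, and the deposited values are log2 values of counts that they had normalized with DESeq, for 17 samples and 23284 genes. The submitters' processing notes name bcl2fastq 1.8.4, TopHat, Cufflinks, DESeq and mm9. The counter, its use of strand and the step to log2 are not given in the sources used here. Between 11.5 and 15, all values (100%) stood for whole reads within 0.05, which gave each library's depth. Lower values carry added scatter, so reads were not recovered there and no count test was run.

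The 11 samples were fitted with limma 3.58.1 in R 4.3.3 (lmFit, eBayes with trend), with a linear mean of 10 or more required. Passing took an adjusted p (Benjamini-Hochberg) below 0.05 together with a log2 fold change of 1 or more in size. The script was tested on simulated data. List medians cover tested members, and shares of reads cover all members in the table. Figures were drawn with matplotlib 3.10.9.

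Members and lists were chosen with earlier results of these data known. The rule names the 15 largest rises and falls without overlap, the 5 largest in linear amount, the 4 largest changes per list with up to 2 against its direction, the factors introduced, and the 5 largest SDs between grafts. Krt14, Trp63, Pbsn, Hoxb13 and the fibroblast markers check the labels. Lyz2, Ptprc and the genes of the other observations were chosen after their values were seen. Results for a few genes of this rule are left out. Alternatives varied the filter, scaling, pseudocount, minimum fold change, limma options and samples. Gene positions (mm9) come from GENCODE M1. The 2 remaining grafts were normalized in a table of their own and were not used here.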

Additional observations from a re-analysis of the deposited data

Results flagged for a closer look

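Samples far from the rest of their group were sought among the values of the genes named and the read shares of 6 lists, in 416 sets of 5 grafts or 6 MEF samples. This gave 24 cases, and chance flags about 1 set in 20, which would be 20.8. FS008 was the low graft for Krt5 (5.13, other grafts 11.67 to 13.73), Col17a1 (5.99, others 10.93 to 11.87), Itgb4 (10.69, others 11.39 to 11.63), Calml3 (3.43, others 9.14 to 11.41), Serpinb5 (5.12, others 9.22 to 9.71), Cnfn (-0.041, others 8.08 to 9.70) and Sprr1a (5.48, others 10.19 to 11.25), all genes of basal or stratified epithelium, as well as for Hoxd13 (4.19, others 8.05 to 8.86), Ccl8 (6.03, others 8.40 to 9.33) and Myc (6.69, others 9.07 to 9.67). FS007 was high for Oas3 (11.05, others 7.19 to 8.15) and for the share of reads on interferon genes (0.391%, others 0.0871% to 0.128%), and low for Flt1 (6.66, others 8.30 to 8.71) and Gm2115 (1.84, others 3.93 to 4.44). FS003 was high for Lyz2 (13.72, others 11.87 to 12.32).

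Among MEF samples, FS020 was high for Col1a1 (18.36, others 17.70 to 17.94) and low for Svs2 (-1.55, others -0.40 to 0.11) and Sox17 (-2.43, others 0.17 to 1.03), the last 2 below the level of 3 reads. FS019 was low for Col12a1 (15.68, others 15.96 to 16.11), Oasl1 (-0.25, others 2.57 to 4.17) and Atp2a1 (-1.15, others 1.80 to 3.37). FS016 was high for Ccl8 (2.98, others 1.42 to 1.79). FS017 was low for Creb3l4 (3.52, others 4.197 to 4.54) and high for the share of reads on interferon genes (0.0445%, others 0.0225% to 0.0271%).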

How the results depend on the processing

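Of the counts of genes that differ, quantile normalization gave 3028 higher and 3635 lower. Without a minimum fold change 10573 passed, 4088 of them lower, and with a minimum log2 fold change of 2 the numbers were 4424 and 793. Without MEF samples FS015 to FS018, which leaves 2 MEF samples, 4493 genes passed, 3056 of them higher. Genes gained from below detection were 405 with over 10 reads in place of 3, and genes lost to below detection were 1 with over 10 reads and 21 without FS015 to FS018. The count of the latter was 8 to 14 over the fits without 1 graft, 14 without FS005. Leaving out 1 graft gave 6463 to 6896 passing genes and leaving out 1 MEF sample 6465 to 6667. The log2 fold change of Klf4 ranged from -0.161 to 0.241 over the fits without 1 graft and from -0.0491 to 0.181 over those without 1 MEF sample, with values below 0 without FS003 (-0.00327), FS007 (-0.161), FS015 (-0.0491) or FS020 (-0.00252), and was -0.185 without FS015 and FS020. Hoxb13 turned to -0.999 after quantile normalization. Apart from limits that follow from fewer samples or another minimum, the cause was not tested. Over 202 genes and 27 alternatives, 5294 of 5445 changes kept direction and side of the threshold, 137 lost the call, 8 gained it and 6 changed sign. No paired analysis was possible because the labels give no replicate numbers that grafts and MEFs share. Depth limits genes near 3 reads, where added scatter hides counts.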

Other observations

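The genes that were not seen in MEFs and had the highest level in their lowest graft were, in order, Krt6a, Cyp2a5, Gpx2, Hnf4a, Muc4, Clca3, Kcnj16, Muc5b, Ly6d and Gcnt3. Several of them belong to mucous epithelium. Muc5b, a gel-forming mucin of airway and glands, was at 10.58, 12.78, 8.96, 11.01 and 11.12 in FS002, FS003, FS005, FS007 and FS008, and its prostate mean was 0.60. Muc4, a mucin anchored in the membrane, was at 9.47, 10.45, 9.49, 11.38 and 10.86 in the same grafts, with a prostate mean of 3.13. Both mucins were present in all grafts, and they rose by at least 8.81 and 8.25. Clca3, a secreted protein of goblet cells, was at 10.85, 12.27, 12.38, 14.50 and 9.24 and rose by at least 9.77, and Gcnt3, an enzyme that branches mucin sugars, rose by at least 8.17. Gpx2, the glutathione peroxidase of gut epithelium, was at 10.09 to 11.94 in grafts and Ly6d, a surface protein of stratified epithelium, at 8.96 to 11.91. Kcnj16, a potassium channel of kidney tubule, was at 11.16, 8.99, 11.59, 9.03 and 12.51, with FS002, FS005 and FS008 the high samples, as for the nephron genes.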
